A study of Mus musculus with 18 samples.

Results

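The genes described here are 39 mouse genes that carry signals from interleukin-1 and TNF to NF-kB, out of 21887 protein-coding genes of the RefSeq table for GRCm38.p6. They were set by name: 5 NF-kB subunits, 6 listed as inhibitors of NF-kB, 5 ligands, 9 receptors, 13 adaptors and kinases, and Tnfaip2, which TNF induces. The inhibitor group holds Nfkbia, Nfkbib, Nfkbie, Nfkbiz, Tnfaip3 and Tnip1, and no effect on NF-kB was measured. Open chromatin near the 39 genes was read from 6 lists of ATAC-seq peaks. A peak counted for a gene when its summit lay inside the gene body or within 50 kb of it, and each peak went to the nearest of the 39 genes. Overlapping peaks of a list were merged and are called regions. This gave 244 of 40073 regions in wild-type and 300 of 48620 in knockout HSC. HPC had 374 of 65832 in wild type and 324 of 52840 in knockout, and the HSC of older mice 432 of 80100 after vehicle and 420 of 71363 after 5-fluorouracil. The genes therefore held between 0.539% and 0.617% of each list, and every gene had at least 1 region in every list.

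The study profiled haematopoietic stem cells (HSC) and cells labelled HPC, the usual abbreviation for haematopoietic progenitor cells, in 18 mouse samples by ATAC-seq, which cuts accessible DNA with the Tn5 transposase. At 8 weeks of age the groups were wild-type HSC (2 samples), HSC of Kmt2c f/f mice with Vav-Cre (2), wild-type HPC (4) and HPC of Kmt2c f/f mice with Vav-Cre (2), all without treatment. At 16 weeks they were wild-type HSC from mice given PBS vehicle (4) or 5-fluorouracil (4), a chemotherapy that is toxic to cells in division, at 150 mg/kg, each in 3 injections at intervals of 3 weeks. Vav-Cre acts in blood cells, so the mice lack Kmt2c, an enhancer histone methyltransferase, in the whole blood lineage and not only in HSC. The labels name no sort markers, give RNA as the extracted molecule, and do not say which part of Kmt2c is deleted, so open chromatin at Kmt2c could not check the genotype. Each group came as 1 peak list. There was thus no spread between replicates to set a difference against, and no test across samples was made. Age, treatment and the number of pooled samples differ together between the 8-week and the 16-week HSC lists and cannot be told apart.

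Interleukin-1 and TNF are alarm cytokines. Their receptors, like the Toll-like receptors that sense microbes, pass the signal through adaptors (Myd88, the Traf proteins), kinases of the Irak family and Map3k7 to the IkB kinases Chuk and Ikbkb. These kinases mark the IkB inhibitors for destruction and free NF-kB dimers, which enter the nucleus and switch on target genes, among them the genes of their own inhibitors. In blood stem cells, interleukin-1 and TNF are known to drive cell division and myeloid output, and NF-kB supports survival under inflammatory stress.

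The sites that NF-kB reads lie close to the start of several of these genes. The sequences below show the 250 bases before the start, on GRCm38.p6 and from RefSeq, for 6 genes whose start sites carry such letters. They are written 5′ to 3′ along the gene. Capitals mark matches, on either strand, to the common 10-base NF-kB site, with the outer bases fixed and the centre free. Nfkbia, Tnfaip3 and Tnip1 encode inhibitors, Nfkb2 a subunit, Il6 a cytokine and Map3k7 the kinase TAK1.
Nfkbia, chr12:55492648-55492897, minus strand: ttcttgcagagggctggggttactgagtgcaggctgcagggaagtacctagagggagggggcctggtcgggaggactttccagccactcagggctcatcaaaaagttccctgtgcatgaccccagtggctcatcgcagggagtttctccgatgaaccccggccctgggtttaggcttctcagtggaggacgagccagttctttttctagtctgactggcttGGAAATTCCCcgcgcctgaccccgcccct
Il6, chr5:30012864-30013113, plus strand: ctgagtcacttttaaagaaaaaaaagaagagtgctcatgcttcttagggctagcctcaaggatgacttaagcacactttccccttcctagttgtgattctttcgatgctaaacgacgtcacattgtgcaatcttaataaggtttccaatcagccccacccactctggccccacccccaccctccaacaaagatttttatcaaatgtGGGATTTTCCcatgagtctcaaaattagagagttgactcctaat
Map3k7, chr4:31963857-31964106, plus strand: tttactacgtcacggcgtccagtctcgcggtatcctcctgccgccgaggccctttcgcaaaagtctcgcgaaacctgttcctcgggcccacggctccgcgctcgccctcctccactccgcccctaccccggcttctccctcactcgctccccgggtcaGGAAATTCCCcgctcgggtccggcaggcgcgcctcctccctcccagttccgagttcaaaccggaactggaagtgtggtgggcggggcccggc
Nfkb2, first start, chr19:46304487-46304736, plus strand: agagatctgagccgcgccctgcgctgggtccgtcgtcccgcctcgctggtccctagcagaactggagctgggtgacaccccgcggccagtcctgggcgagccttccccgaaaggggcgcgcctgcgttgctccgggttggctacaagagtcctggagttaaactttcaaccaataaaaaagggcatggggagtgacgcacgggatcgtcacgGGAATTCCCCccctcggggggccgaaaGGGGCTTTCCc
Nfkb2, internal start, chr19:46305680-46305929, plus strand: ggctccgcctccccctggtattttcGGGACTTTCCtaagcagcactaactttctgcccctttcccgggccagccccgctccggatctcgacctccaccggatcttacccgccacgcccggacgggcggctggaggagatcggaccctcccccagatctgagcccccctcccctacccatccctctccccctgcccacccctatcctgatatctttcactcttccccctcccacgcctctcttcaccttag
Tnfaip3, chr10:19015411-19015660, minus strand: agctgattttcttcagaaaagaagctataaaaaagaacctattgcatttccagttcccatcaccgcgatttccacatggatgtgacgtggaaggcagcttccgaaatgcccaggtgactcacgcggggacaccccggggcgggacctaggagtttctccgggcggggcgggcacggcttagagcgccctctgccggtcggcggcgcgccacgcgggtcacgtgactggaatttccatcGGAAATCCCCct
Tnip1, chr11:54962941-54963190, minus strand: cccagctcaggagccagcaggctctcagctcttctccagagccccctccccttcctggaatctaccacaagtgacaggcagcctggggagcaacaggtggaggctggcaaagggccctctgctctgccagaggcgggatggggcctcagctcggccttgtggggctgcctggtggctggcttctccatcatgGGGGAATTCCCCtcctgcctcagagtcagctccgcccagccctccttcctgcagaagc
In these promoters the marked letters begin 29 bases before the start of Nfkbia, 44 before that of Il6, 92 before that of Map3k7 and 12 before that of Tnfaip3. Nfkb2 has matches 38 and 11 bases before its first start, and Tnip1 has overlapping matches 58 and 56 bases before its start. The 6 promoters shown that belong to a gene's outermost listed start overlapped an accessible region in all 6 lists. They are examples, and not every promoter with a match did so. For Nfkb2 the gene body begins further upstream of its first listed start, at chr19:46300994. The internal Nfkb2 start, with a match that begins 225 bases before it, overlapped a region in the vehicle and 5-fluorouracil lists only.

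The promoter table matched 34 of the 39 genes with 43 promoters of 250 bases before to 50 bases after a start. Nfkb1, Relb, Nfkbiz, Tlr4 and Ikbkb had no entry. The NF-kB site on either strand was in 16 of the 43 promoters (37.2%), from 13 genes, against 5.76% of all 21263 promoters in the table. A stricter form of it, with all but 1 base fixed and contained in the first, was in 5 promoters (11.6%) of 4 genes, Il6, Map3k7, Nfkb2 and Nfkbia, against 0.423% of all. A form with a run of C at its end was in 9.30% against 6.07%. The AP-1 letters TGANTCA were in 11.6% against 6.99%, and the RUNX letters TGTGGT in 23.3% against 15.0%. Of the promoters with the NF-kB site not shown above, those of Chuk, Rel, Tlr2 and Traf2 overlapped a region in all 6 lists. That of Nfkbie did so in 4 lists, and those of Traf3, the second Il1r1 start and another internal Nfkb2 start in 2. The second Tnfaip3 start did so in none. A match describes the letters and is not evidence that a factor was bound, and promoters of the same gene overlap.

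Lists differed in length, from 56976 rows (wild-type HSC) to 163058 (vehicle HSC), and read depth is unknown. Of 10 HSC marker genes, 5 and 7 had an accessible start in wild-type and knockout HSC, 7 and 6 in wild-type and knockout HPC, and 10 and 9 in HSC after vehicle and 5-fluorouracil. Hlf, Mecom, Fgd5 and Kit were open in every list. Of 6 myeloid progenitor markers, 1, 2, 3, 3, 5 and 3 were open in the same order, and of 5 neutrophil markers 1 or 2. Of 5 T and NK markers none was open in wild-type HSC and Cd4 alone in the other lists. Of 4 erythroid markers 3 were open in every list, of 5 macrophage markers 2 or 3, and of 4 stromal and endothelial markers 1 or 2. Ly6g, Marco, C1qa, Elane, Cd3e, Cd79a and Hba-a1 had no region at their start in any list. The part of these other cell types in the results below was not tested.

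**Figure D1:**
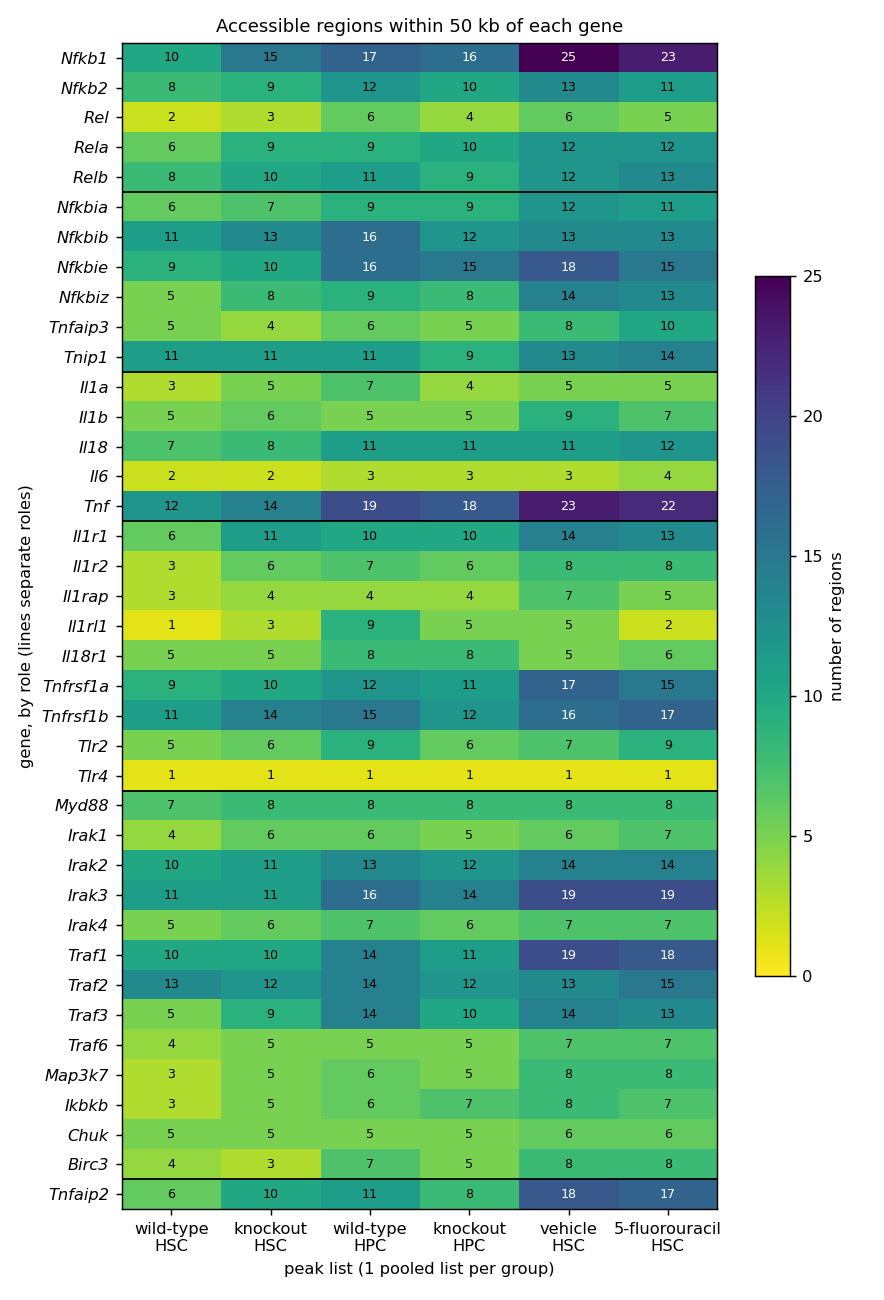
Number of accessible regions assigned to each of the 39 genes (rows) in each of the 6 peak lists (columns), with darker colour for more regions. Nfkb1 and Tnf hold the most in the longest list, 25 and 23 in vehicle HSC, and Tlr4 holds 1 in every list.

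Most of these genes had an accessible start in stem cells as well as in progenitors. A region within 1 kb of a start was found for 34 of 39 genes in wild-type HSC (87.2%, against 52.2% of all protein-coding genes) and for 32 in knockout HSC (82.1% against 55.7%). The HPC lists had 34 in wild type (87.2% against 59.7%) and 33 in knockout (84.6% against 54.9%). Vehicle HSC and 5-fluorouracil HSC both had 36 (92.3%, against 65.5% and 63.6%). The 95% Wilson intervals for the 39 genes ran from 67.3% at the lowest to 97.3% at the highest, and cover counting error only. For the 5 genes without a promoter entry both gene ends were used. For the other genes only the listed starts were used, and some gene bodies, among them those of Il1rl1, Il1r2 and Nfkb2, begin further upstream.

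**Figure D2:**
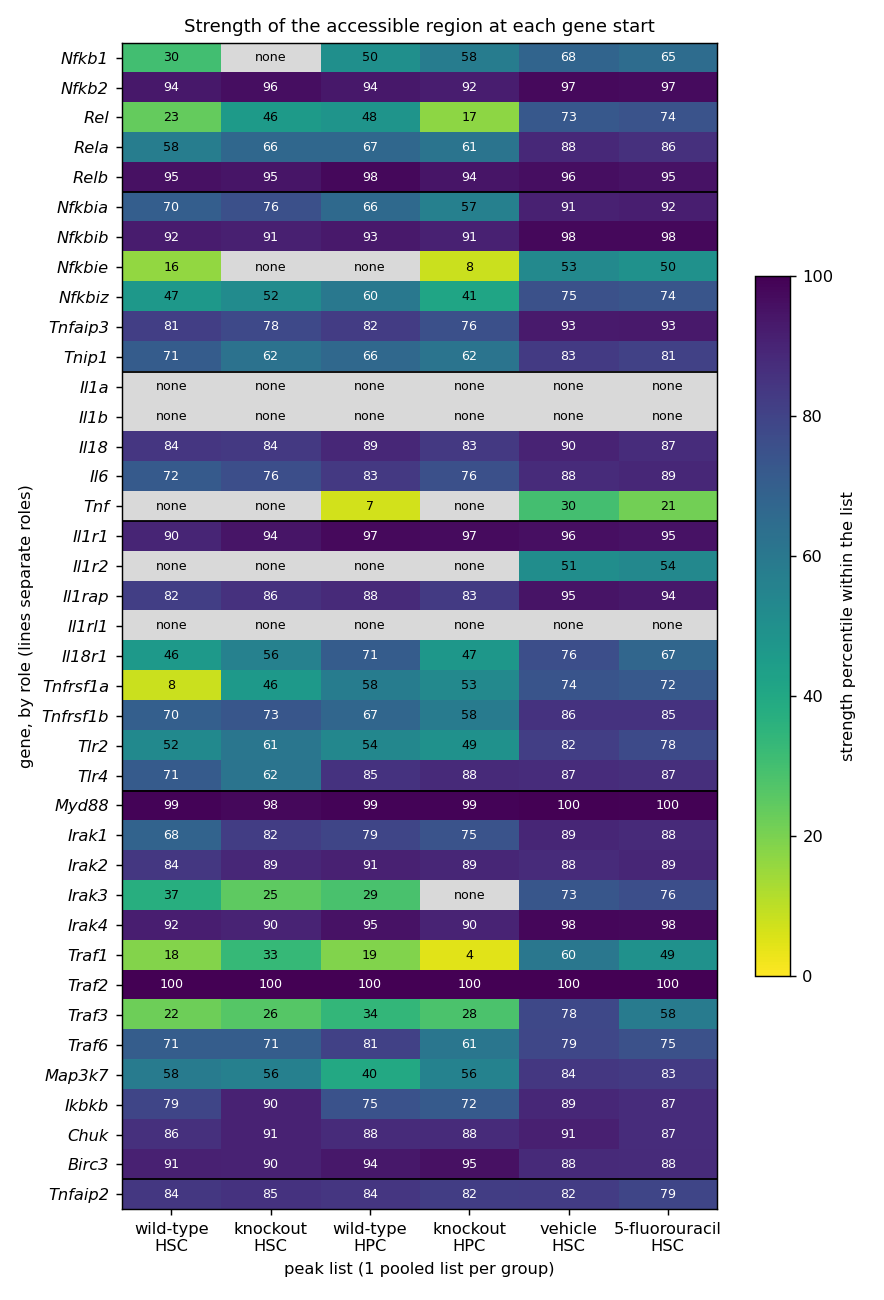
Strength of the accessible region at the start of each of the 39 genes (rows) in each list (columns), as the percentile of −log10 p among all regions of that list, with "none" where no region lay within 1 kb. Traf2 stands at or near the top of every list, and Il1a, Il1b and Il1rl1 have no region in any list at the starts used. Those starts leave out the upstream end of the Il1rl1 gene body.

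The NF-kB subunits were open in nearly every list. Rela, the main activating subunit, had a start region with a fold enrichment (over the local background) of 13.1 and 15.8 in wild-type and knockout HSC, 14.3 and 13.7 in wild-type and knockout HPC, and 15.9 and 14.8 in HSC after vehicle and 5-fluorouracil. This ratio is the authors' own value at the summit and orders regions within a list only. Relb, the partner of Nfkb2 in the noncanonical branch, stood between percentiles 94.4 and 97.8 of strength, and Nfkb2 between 91.9 and 97.3. Rel, which encodes c-Rel, had a weaker start, between 17.2 and 74.3. Nfkb1, which encodes p105 and its product p50, had a region at a gene end in 5 lists, with fold enrichments of 8.81 in wild-type HSC, 10.9 and 13.1 in wild-type and knockout HPC, and 8.73 and 8.47 in HSC after vehicle and 5-fluorouracil. Knockout HSC had none there, but it had a region just beyond the 1 kb limit, chr3:135693067-135693380 on mm10, with a fold enrichment of 9.82. Inside and around Nfkb1 there were 29 separate loci over the 6 lists, 7 of them in all 6.

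Among the inhibitors, 4 of the 5 with a promoter entry, Nfkbia, Nfkbie, Tnfaip3 and Tnip1, had a match to the NF-kB site. Nfkbia, which encodes IkB alpha, had a start region with a fold enrichment of 12.8 and 13.3 in wild-type and knockout HSC, 8.24 and 7.48 in wild-type and knockout HPC, and 12.4 and 13.6 in HSC after vehicle and 5-fluorouracil. Its percentile of strength was 70.1, 75.6, 65.8, 56.6, 90.7 and 91.5 in that order. Nfkbib, which encodes IkB beta, stood at or above percentile 91.0 in every list. Nfkbie, which encodes IkB epsilon, had a weak start region, absent from knockout HSC and wild-type HPC, with a fold enrichment of 4.29 in knockout HPC and 6.15 in wild-type HSC.

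Tnfaip3 encodes A20, a ubiquitin-editing enzyme that ends TNF and Toll-like receptor signals. Its start, chr10:19014423-19015865, was in every list, with fold enrichments of 18.6 and 18.5 in wild-type and knockout HSC, 19.2 and 16.4 in wild-type and knockout HPC, and 19.6 and 20.0 in HSC after vehicle and 5-fluorouracil. A region inside the gene, chr10:19008289-19009058, was in the 16-week lists only, at 15.2 in vehicle HSC and 17.8 in 5-fluorouracil HSC. It was the strongest by fold enrichment of the 57 loci near the 39 genes found in those lists alone. A region 18.5 kb before the start, chr10:19033726-19034082, was in the HPC lists only, at 16.5 in wild type and 15.1 in knockout. The neighbouring regions 28.7 and 47.2 kb before the start were in all 6 lists. Tnip1, which encodes a partner of A20, had its start open in every list, with fold enrichments between 15.9 and 20.5.

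The ligands were the least open group at their starts. Il1b, which encodes interleukin-1 beta, and Il1a, which encodes interleukin-1 alpha, had no region within 1 kb of the start in any list. Il1b nonetheless had a strong region 2.4 kb before its start, chr2:129373191-129373813, with fold enrichments of 23.5 and 24.6 in wild-type and knockout HSC, 22.9 and 24.2 in wild-type and knockout HPC, and 23.7 and 23.1 in HSC after vehicle and 5-fluorouracil. Another lay 33.0 kb beyond the start, between Il1b and Il1a, at 27.2, 29.8, 31.3, 28.8, 28.9 and 27.9 in that order. Both were in all 6 lists.

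Further upstream of Il1b the stem cell and progenitor lists parted. A region 31.4 kb before the start, chr2:129402194-129403233, had fold enrichments of 10.8 and 13.4 in wild-type and knockout HSC and 20.3 and 20.0 in HSC after vehicle and 5-fluorouracil, and was in neither HPC list. The regions 37.5 kb before the start, chr2:129408301-129408952, and 21.3 kb before it, chr2:129392091-129392639, showed the same pattern. The first of these stood at 10.1, 18.7, 14.2 and 11.2 in the 4 HSC lists and the other at 10.5, 15.0, 16.0 and 9.72. These 3 regions were among only 5 loci near the 39 genes that all 4 HSC lists held and neither HPC list did. Conversely, chr2:129413489-129414519, 42.6 kb before the start, was in the HPC lists only, at 11.1 in wild type and 11.9 in knockout. A region 22.6 kb before the start was in both HPC lists (13.9 and 13.4) and in vehicle HSC (8.75), but not in the other HSC lists.

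**Figure D3:**
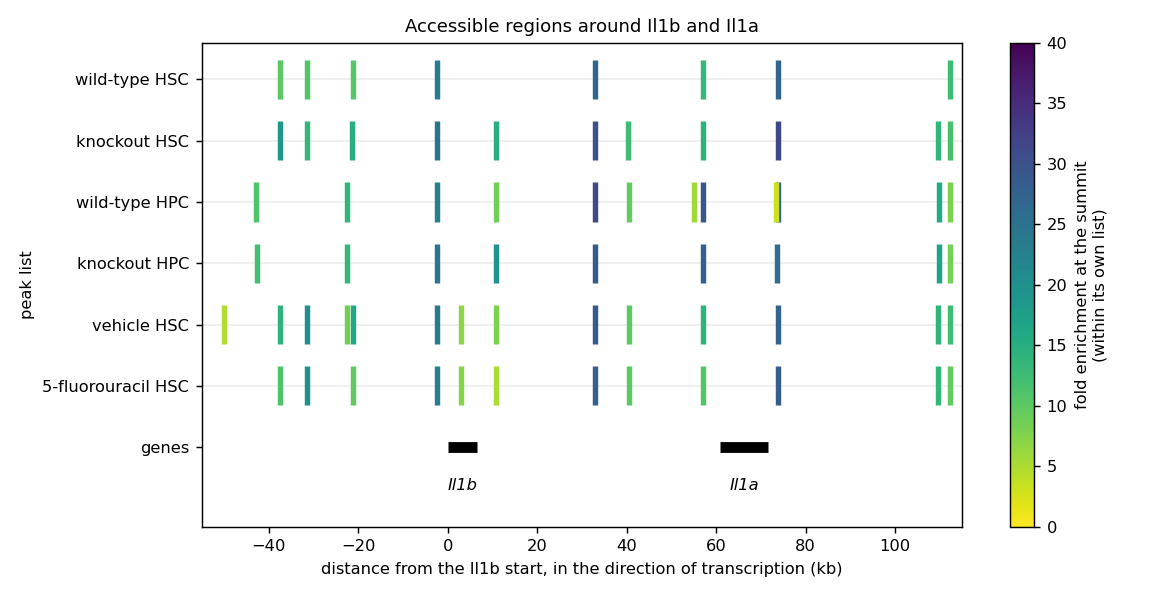
Accessible regions around Il1b and Il1a in the 6 lists, placed by distance in kb from the Il1b start in the direction of transcription, with gene bodies as black bars and colour for fold enrichment within each list. The 3 regions 37.5, 31.4 and 21.3 kb before the start are in all 4 HSC lists and in neither HPC list.

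Tnf, which encodes tumour necrosis factor, had a weak start region in wild-type HPC (fold enrichment 3.75), vehicle HSC (5.18) and 5-fluorouracil HSC (4.21), and none in the other lists. A region inside the gene, chr17:35200398-35200864, was in every list, at 11.4 and 13.2 in wild-type and knockout HSC, 14.5 and 15.8 in wild-type and knockout HPC, and 8.99 and 11.1 in HSC after vehicle and 5-fluorouracil. Tnf lies in a gene-dense stretch beside Lta and Ltb, and most of its 26 loci were nearer to another gene than to Tnf. Il6 had few regions but an open start, with fold enrichments between 17.7 in knockout HPC and 21.0 in wild-type HPC. Il18, a relative of interleukin-1, had a start at or above percentile 83.4 in every list.

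Il1r1, Il1r2, Il1rl1 and Il18r1 lie close together on chromosome 1, and their start regions differed. Il1r1, the signalling receptor, had a strong start in all lists, chr1:40224569-40225354, with fold enrichments of 22.6 and 26.4 in wild-type and knockout HSC, 31.4 and 29.5 in wild-type and knockout HPC, and 23.3 and 24.1 in HSC after vehicle and 5-fluorouracil. Il1r2, which encodes a decoy receptor, had a region at its start in the promoter table in vehicle HSC (7.83) and 5-fluorouracil HSC (8.54) only. A region 1.4 kb before that start was in all 6 lists, and the gene body begins about there, at chr1:40084692. Il1rl1, which encodes the interleukin-33 receptor ST2, had none at its 2 starts in the promoter table. Its gene body begins further upstream, at chr1:40404864, and a region there is given below. Il18r1, the interleukin-18 receptor, had its start open in every list, between 11.9 in knockout HPC and 15.8 in knockout HSC.

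Around these 4 adjacent receptor genes wild-type and knockout HSC held 15 and 25 regions, wild-type and knockout HPC 34 and 29, and HSC after vehicle and 5-fluorouracil 32 and 29. They were singled out after their values were seen. Il1rl1 held 1, 3, 9, 5, 5 and 2 of these in that order. A region inside Il1rl1, chr1:40444709-40445105, was in the HPC lists only, at 19.5 in wild type and 13.7 in knockout. One 24.7 kb before its first start in the promoter table, chr1:40404428-40405113, was too, at 10.4 and 12.4. It spans the upstream end of the gene body, chr1:40404864, which was not used as a start. A region 38.0 kb before the start, chr1:40391214-40391836, stood at 25.7 and 24.2 in wild-type and knockout HPC, 14.3 in knockout HSC and 7.25 in vehicle HSC, and was absent from wild-type HSC and 5-fluorouracil HSC.

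**Figure D4:**
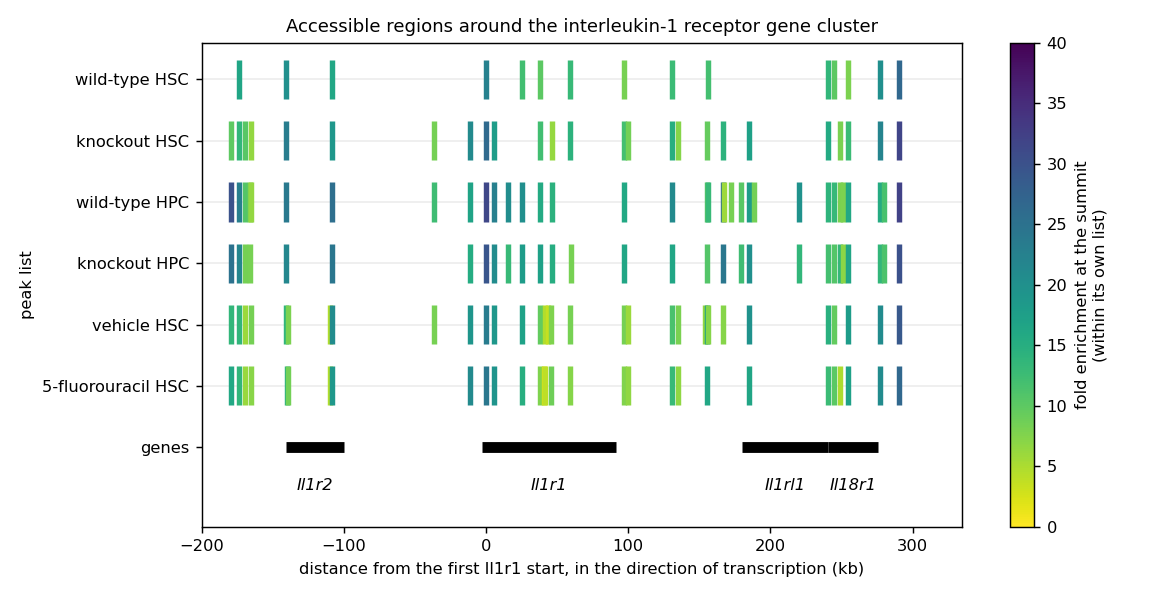
Accessible regions around Il1r2, Il1r1, Il1rl1 and Il18r1 in the 6 lists, placed by distance in kb from the first Il1r1 start in the direction of transcription, with gene bodies as black bars and colour for fold enrichment within each list. Wild-type HSC has the fewest marks, 15, and wild-type HPC the most, 34. Il1rl2, beside Il1r1, is not drawn.

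Il1rap, the shared co-receptor, had a start region in every list, at or above percentile 81.6 of strength. Tnfrsf1a, TNF receptor 1, had a start at percentiles 8.1 and 46.4 of strength in wild-type and knockout HSC, 57.8 and 52.7 in wild-type and knockout HPC, and 74.1 and 72.0 in HSC after vehicle and 5-fluorouracil. Percentiles come from lists of different lengths, so they show the place in each list and no change. Tnfrsf1b, TNF receptor 2, stood between 58.3 and 85.5. Of the microbial sensors, Tlr2 had 5 to 9 regions a list, and Tlr4 a single region, which lay at a gene end in every list with fold enrichments of 16.2, 14.6, 23.5, 22.9, 15.8 and 16.5 in the order of the lists above.

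The adaptors and kinases included the strongest starts. Traf2, an adaptor of TNF receptors, had a start region, chr2:25546531-25547258, with fold enrichments of 34.1 and 34.4 in wild-type and knockout HSC, 29.6 and 28.8 in wild-type and knockout HPC, and 28.2 and 28.3 in HSC after vehicle and 5-fluorouracil, at or above percentile 99.6 in every list. Myd88, the adaptor of interleukin-1 and most Toll-like receptors, stood at or above 98.0, with the summit of that region 1.3 kb before its start and nearer to Acaa1a. The Myd88 promoter itself overlapped a region in 5 lists and none in wild-type HSC. Irak4, the first kinase of the Myd88 complex, had a start between percentiles 89.9 and 98.2. A region 14.0 kb inside Irak4 reached a fold enrichment of 35.8 in wild-type HPC, the highest of any region near the 39 genes in that list. Irak3, which encodes the inhibitory IRAK-M, had a start region in 5 lists, between 9.19 and 12.1, and none in knockout HPC. Traf1, which NF-kB induces, had a weak start, at percentile 4.5 in knockout HPC and 60.2 in vehicle HSC.

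A region inside Irak3, chr10:120168036-120168889, was in all 4 HSC lists. It stood at 25.3 and 23.2 in wild-type and knockout HSC and 27.6 and 25.4 in HSC after vehicle and 5-fluorouracil, was absent from wild-type HPC and stood at 8.81 in knockout HPC. A few kb away, chr10:120163509-120163908 was in the HPC lists only, at 17.3 in wild type and 17.1 in knockout. Traf3, a brake on noncanonical NF-kB, had a region 130.3 kb past its start, chr12:111296390-111296941, in the HPC lists only, at 26.3 in wild type and 18.1 in knockout. In the wild-type list it had the highest fold enrichment of the 17 HPC-only loci near the 39 genes, but it lies beyond the gene and nearer to Cdc42bpb.

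The first comparison asked how open chromatin near these genes differed between HSC with and without Kmt2c. Regions found in only 1 of the 2 lists were more numerous on the knockout side near 29 of the 39 genes, on the wild-type side near 3 (Tnfaip3, Traf2 and Birc3), and equal near 7. Of the 300 knockout HSC regions, 73 (24.3%, 95% Wilson interval 19.8 to 29.5) had no overlapping region in wild-type HSC, against 25.9% of all regions of the list and 25.3% of those near a gene. In the other direction 16 of 244 wild-type regions (6.56%, 4.08 to 10.4) had none in knockout HSC, against 9.99% of all regions and 9.76% of those within 50 kb of a protein-coding gene. The knockout share near these genes was thus close to that of the whole list.

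The excess of knockout regions was widest at Nfkb1 and Il1r1, each with 6 regions of the knockout alone and 1 of the wild type alone. Traf3 and Tnfaip2 had 4 and 0, and Rela, Tnf, Il1r2 and Tnfrsf1b 3 and 0. All 5 NF-kB subunits were on the knockout side, with 14 regions of the knockout alone against 1 between them, and so were 7 of 9 receptors, with 20 and 4. The whole lists leaned the same way, with 12589 regions for the knockout and 4004 for wild type. In the cluster of 4 receptor genes described above, 13 of 25 knockout regions (52.0%) were knockout-only, against the 25.9% of all regions. On the other side, 3 of 15 wild-type regions (20.0%) were wild-type-only, against 9.99% of all regions. These genes were singled out after their values were seen. The strongest by fold enrichment of all knockout-only regions without a wild-type region within 1 kb lay inside Map3k7, chr4:32004706-32005229, at 25.4. Il1r1 followed with regions 11.6 kb before its start (21.0) and 5.4 kb inside the gene (17.9). All of these were also in both HPC lists, vehicle HSC and 5-fluorouracil HSC, so within these lists they were missing from 8-week wild-type HSC alone.

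Of the 73 knockout-only regions, 70 (95.9%, 88.6 to 98.6) were in the vehicle HSC list, against 93.3% of all knockout-only regions, and 49 (67.1%, 55.7 to 76.8) in wild-type HPC, against 66.2%. They were weak regions, at a median percentile of 14.5 against 60.8 for knockout HSC regions shared with wild type. Over all regions of the list the medians were similar, 17.1 for knockout-only and 62.7 for shared regions. The wild-type-only side held 1 region that both knockout lists lacked and all 4 wild-type lists had near Birc3, an inhibitor of cell death and NF-kB regulator. It lay 24.5 kb before the gene, chr9:7897562-7898019, at 12.6 and 15.1 in wild-type HSC and HPC and at 12.9 in both 16-week lists. Near Tnip1, Irak2 and Tnfrsf1a there was 1 such region each. These 4 were 0.806% of the 496 loci near the 39 genes, against 0.847% of all 94178 loci. No locus near these genes was in both knockout lists and no wild-type list, against 0.0287% of all loci. With both lists limited to an equal number of their strongest regions, the knockout-only share was 13.2% and the wild-type-only share 13.1%, against 15.3% and 15.1% of all regions. Counted over peaks with summits within 250 bp, the wild-type-only share was 11.9% against 12.9%.

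**Figure D5:**
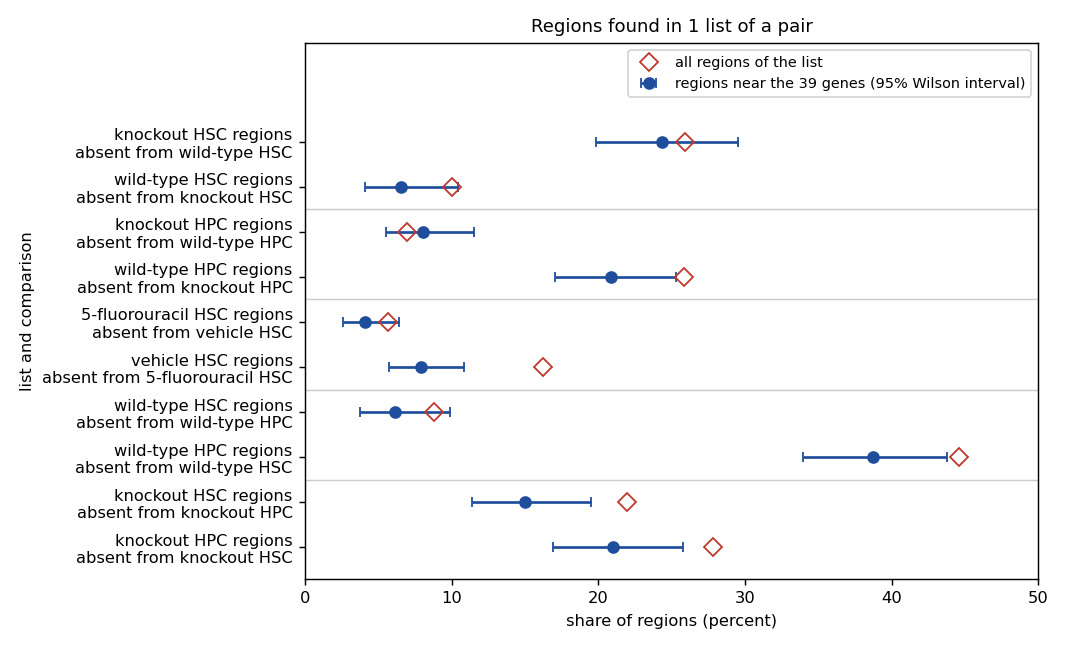
Share in percent (horizontal axis) of the regions near the 39 genes that were absent from the other list of a pair (filled circles, with 95% Wilson intervals) and the same share over all regions of the list (open diamonds). The widest gap is in vehicle HSC regions absent from 5-fluorouracil HSC, 7.87% against 16.2%.

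In HPC the numbers ran the other way. Of 374 wild-type HPC regions near the genes, 78 (20.9%, 17.0 to 25.3) were absent from knockout HPC, against 25.9% of all regions of that list and 25.2% of those within 50 kb of any protein-coding gene. Of 324 knockout HPC regions, 26 (8.02%, 5.53 to 11.5) were absent from wild type, against 6.96% and 6.70%. Wild type had the larger number near 27 genes and knockout near 1, Ikbkb, which encodes an IkB kinase. All 6 genes listed as inhibitors, Nfkbiz among them, were on the wild-type side, with 16 against 5 regions found in a single genotype. So were 4 of 5 subunits (10 and 3). Over the whole lists the numbers were 17025 for wild type and 3677 for the knockout.

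Il1rl1 and Nfkbib had 4 wild-type-only HPC regions and 0 knockout-only ones, Traf3 5 and 1, Tlr2 and Tnfrsf1b 3 and 0, and Tnfaip2 4 and 1. Here and below, the strongest regions of a single list are ranked by fold enrichment among those more than 1 kb from any region of the list compared. The strongest wild-type-only region was the one near Birc3 given above. Next came a region beyond the end of Irak3, chr10:120130694-120130964, at 14.8, and one 11.6 kb inside Tnfaip2, chr12:111454018-111454593, at 14.5. Both were also in vehicle HSC. The strongest knockout-only region lay 11.3 kb before Rel, chr11:23782092-23782366, at 12.7, and was also in knockout HSC, vehicle HSC and 5-fluorouracil HSC. Found in knockout HPC and no other list were 8 loci, near Nfkb1, Nfkbie, Ikbkb, Irak2, Tnfrsf1a, Tnfaip2 and, with 2, Traf1. The wild-type HPC list pools 4 samples and the knockout list 2, and with equal numbers of strongest regions the shares were 12.7% wild-type-only and 12.0% knockout-only, against 13.5% and 12.7% of all regions. Without the weakest 25% of each list the knockout-only share was 3.11%, against 3.42%.

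The larger number was thus the knockout's near 29 genes in HSC and the wild type's near 27 genes in HPC. The whole lists leaned the same way, with 12589 knockout-only against 4004 wild-type-only regions in HSC and 3677 against 17025 in HPC. The share of all protein-coding genes that lean so was not computed, and the difference between the cell types was not tested. Rela, which had 3 knockout-only regions in HSC, had 0 and 0 in HPC. Nfkb1 had 2 knockout-only and 3 wild-type-only regions in HPC, and Il1r1 1 and 1. Of the 78 wild-type-only HPC regions, 21 (26.9%, 18.3 to 37.7) were in knockout HSC, against 29.6% of all such regions.

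The treatment comparison asked how HSC after 3 rounds of 5-fluorouracil differed from vehicle HSC of the same age. The lists were close to each other near these genes. Of 420 regions in 5-fluorouracil HSC, 17 (4.05%, 2.54 to 6.39) were absent from vehicle HSC, against 5.61% of all regions. Of 432 vehicle regions, 34 (7.87%, 5.69 to 10.8) were absent from 5-fluorouracil HSC, against 16.2% of all regions and 15.4% of those within 50 kb of a protein-coding gene. The number of regions in a single list was larger for vehicle near 16 genes, larger for 5-fluorouracil near 8 and equal near 15, among them Myd88, Traf2, Traf6, Irak2, Irak3, Irak4, Rela and Relb. Over the whole lists 12993 regions were vehicle-only and 4002 5-fluorouracil-only, and the lean of all protein-coding genes was not computed.

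Vehicle-only regions were most numerous near Nfkbie and Il1rl1, with 3 and no 5-fluorouracil-only region. Nfkb1, Il1rap and Tnfrsf1a had 3 vehicle-only and 1 5-fluorouracil-only region, and Nfkb2, Nfkbia, Il1b and Traf3 2 and 0. The strongest by fold enrichment were inside Il1rap, chr16:26596925-26597734, at 9.36, and 22.6 kb before Il1b, at 8.75. Il1rap held 3 regions found in vehicle HSC and no other list, all inside the gene. On the 5-fluorouracil side Tnfaip3 and Tlr2 had 2 regions and vehicle 0. The strongest 5-fluorouracil-only regions were weaker, at 6.15 near Irak1, 5.79 near Tnfrsf1a and 5.15 at 21.0 kb before Il6. Of the 17, 0 (0.0%, 0.0 to 18.4) were in the 8-week wild-type HSC list, against 2.37% of all 5-fluorouracil-only regions. In knockout HSC there were 2 (11.8%, 3.29 to 34.3), against 6.77%. Both intervals include the share of all such regions.

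The 17 regions of 5-fluorouracil HSC stood at a median percentile of 6.72, against 55.9 for its shared regions. The 34 of vehicle HSC stood at 17.0 against 59.7. Over all regions the medians were 7.34 against 52.8 in 5-fluorouracil HSC and 11.2 against 58.1 in vehicle HSC. With equal numbers of strongest regions the shares were 7.62% in 5-fluorouracil HSC and 5.67% in vehicle HSC, against 8.93% and 9.41% of all regions, and without the weakest 25% of each list the first was 2.09%, against 2.52%.

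The last comparison set HSC beside HPC within a genotype. Among the 374 wild-type HPC regions, 145 (38.8%, 34.0 to 43.8) were missing from wild-type HSC, against 44.6% of all regions and 43.4% of those near a protein-coding gene. Among the 244 wild-type HSC regions, 15 (6.15%, 3.76 to 9.89) were missing from wild-type HPC, against 8.77%. HPC had the larger number near 36 of 39 genes and HSC near none, while Il1b (3 and 3), Tlr4 and Chuk were equal. The whole lists leaned the same way, with 29370 HPC-only and 3516 HSC-only regions. How many of all protein-coding genes lean so was not computed. Traf3 had 9 HPC-only and 0 HSC-only regions, Nfkbie 9 and 1, Il1rl1 8 and 0, Nfkb1 8 and 1, and Tnf 7 and 0. The strongest HPC-only region lay 40.1 kb before Il1r2, chr1:40045650-40046229, at 30.0, nearer to Map4k4, and the strongest HSC-only region was the one inside Irak3 at 25.3.

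In the knockout, 45 of 300 HSC regions (15.0%, 11.4 to 19.5) were absent from HPC, against 21.9% of all and 21.0% of those near a gene. In the other direction 68 of 324 HPC regions (21.0%, 16.9 to 25.7) were absent from HSC, against 27.8% and 26.6%. HPC was ahead near 19 genes and HSC near 9. Over the whole lists 14691 regions were HPC-only and 10668 HSC-only, and the lean of all protein-coding genes was not computed. Nfkbie had 5 HPC-only regions and 0 HSC-only ones, and Il18 and Il18r1 3 and 0. Nfkb1, with 6 HSC-only and 7 HPC-only regions, had many on either side. The strongest HSC-only region was 37.5 kb before Il1b, at 18.7, and the strongest HPC-only one 33.7 kb before Il18, at 23.2, nearer to Pts. For wild type, equal numbers of strongest regions gave 19.1% HPC-only and 17.6% HSC-only, against 24.3% and 23.7% of all regions, and without the weakest 25% the HSC-only share was 2.79%, against 7.54%. Of the 145 regions of wild-type HPC absent from 8-week wild-type HSC, 104 (71.7%, 63.9 to 78.4) were in vehicle HSC, against 66.5% of all such regions.

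Across the 6 lists together, 205 of the 496 loci near the 39 genes were in every list (41.3%, 37.1 to 45.7), against 32.2% of all loci, and 31 of those 205 lay at a start. Loci in both HPC lists and no HSC list numbered 17 (3.43% against 4.02%), near 15 genes. None was at a start used here, though an Il1rl1 region named above spans the upstream end of its gene body. Besides those named above they included one inside Il1r1, chr1:40240459-40240968, at 20.5 in wild type and 13.0 in knockout, and one 35.0 kb before Rel, chr11:23805569-23806285, at 15.8 and 19.9. Loci in all 4 HSC lists and neither HPC list numbered 5 (1.01% against 1.83%): the 3 before Il1b, one inside Tnip1 and one inside Traf2. The Tnip1 region, chr11:54921336-54922193, stood at 13.9 and 17.1 in wild-type and knockout HSC and 17.8 and 17.9 in HSC after vehicle and 5-fluorouracil.

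Loci in the 16-week lists alone numbered 57 (11.5% against 10.8%), and vehicle HSC alone held 19 (3.83% against 8.74%). For 5-fluorouracil HSC alone there were 11 (2.22% against 2.76%), for wild-type HPC alone 19 (3.83% against 4.88%) and for knockout HPC alone 8 (1.61% against 1.32%). Knockout HSC alone held 1 (0.202% against 0.310%), inside Traf3, and wild-type HSC alone 1 (0.202% against 0.0573%), beside a gene end of Nfkbiz. Tlr4 had its single locus in every list, and Myd88 7 of 8, Chuk 5 of 6 and Irak4 5 of 7 loci in every list. Il1rl1 had none of its 10 in every list.

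A further 50 genes of the same pathways were chosen by name. Their regions are not all separate from those above. Some of these genes lie beside genes already described, as Lta and Ltb do beside Tnf and Il1rl2 beside Il1r1. A region there can count in both sets, and how many regions are shared was not counted. Of the 50 genes, 31 and 35 had an open start in wild-type and knockout HSC, and 40 and 37 in wild-type and knockout HPC. In HSC after vehicle and 5-fluorouracil the numbers were 47 and 43. Of all protein-coding genes the share was 52.2%, 55.7%, 59.7%, 54.9%, 65.5% and 63.6% in that order. The adaptors Tirap, Ticam1, Tradd and Fadd, the ubiquitin ligase subunits Rnf31, Rbck1 and Sharpin and the kinase regulator Ikbkg were open in every list. Ccl5 and Vcam1 were open in none. Tlr7 and Tlr9, sensors of nucleic acids, were open in both HPC lists and in vehicle HSC, and in neither 8-week HSC list. Tlr9 was also open in 5-fluorouracil HSC.

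Of the 330 knockout HSC regions near the 50 genes, 64 (19.4%, 15.5 to 24.0) had none in wild-type HSC, against the 25.9% of all regions given above. Knockout HSC was ahead near 33 genes and wild type near 6. The whole lists held 12589 knockout-only and 4004 wild-type-only regions, and the lean of all protein-coding genes was not computed. Il1rl2, a receptor of the interleukin-36 cytokines beside Il1r1, had 5 and 1. Some regions nearest to Il1rl2 were also counted for Il1r1 above, so the numbers for these genes are not independent. In HPC, 98 of 436 wild-type regions (22.5%, 18.8 to 26.6) were wild-type-only, against the 25.9% of all regions, with Tank, which encodes a TRAF-binding regulator, at 6 and 0. Of 507 vehicle regions, 61 (12.0%, 9.48 to 15.2) were absent from 5-fluorouracil HSC, against the 16.2% of all regions, with Fadd at 4 and 0. Of the same 436 wild-type HPC regions, 160 (36.7%, 32.3 to 41.3) had none in wild-type HSC, against the 44.6% of all regions, and 6 such regions lay near each of Tlr7, Tnip3 and Traf5 and no HSC-only one.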

How the data were processed

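ATAC-seq libraries were made by Tn5 tagmentation, per the labels' protocols. Bowtie2, MACS2 and mm10 (GRCm38) are named per the submitters' processing notes, in versions that the sources used here do not give. The authors deposited 1 peak list per group, which all samples of the group name, so replicates were taken as pooled. Nothing in the labels says whether samples came from separate mice. The deposited lists give, per row, a fold enrichment ratio over local background at the summit, a −log10 p, and the summit's offset, all made by the authors' peak caller. The deposited score and q-value columns were not used. Because rows come from pooled lists without counts, depth is unknown and no replicate error can be given.

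Overlapping rows (1 bp or more) were merged, and each region was assigned to the nearest of the 39 genes within 50 kb. A region was list-only when no region of the other list overlapped it. Shares have 95% Wilson intervals, which cover counting error only, and neighbouring regions are not independent. Percentiles rank −log10 p within a list. The gene assigned was the nearest protein-coding gene for 46.0% to 48.1% of regions. Starts and promoter sequences came from RefSeq (GRCm38.p6), as matched by symbol. The letters of the 10-base NF-kB motifs are not printed. Python 3.11.15, pandas 2.3.3, numpy 2.4.6, scipy 1.17.1 and matplotlib 3.10.9 were used, and the scripts were tested on simulated data. The genes, the lists and the rule for named genes (in each comparison, those with the widest net difference in list-only regions and up to 5 strongest list-only regions, and up to 6 loci per pattern by fold enrichment) were chosen with earlier results of these data known. Alternatives were the window, the nearest gene, the list length, the weakest regions and the matching of rows by summit. The result for 1 list of marker genes is not reported here.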

Additional observations from a re-analysis of the deposited data

How the results depend on the processing

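Of 80 alternative values of the list-only shares, 63 moved by less than their interval and 17 by more. The 63 include 10 values for which only the background was changed, to regions within 50 kb of a protein-coding gene. These 10 repeat the main share by construction, so they could not move and do not test it. None of the 18 alternative values of the share of open starts moved by more than its interval. With equal numbers of strongest regions, the share near the genes was 13.2% in knockout HSC and 13.1% in wild-type HSC, 12.0% in knockout HPC and 12.7% in wild-type HPC, 7.62% in 5-fluorouracil HSC and 5.67% in vehicle HSC, and 17.6% in wild-type HSC and 19.1% in wild-type HPC set against each other. Without the weakest 25% of regions it was 3.11% for knockout HPC against wild type, 2.09% for 5-fluorouracil HSC against vehicle and 2.79% for wild-type HSC against HPC. With a 10 kb window knockout HSC had 19.3%. With gene bodies only, wild-type HPC had 16.7% against knockout, and knockout HPC 27.5% against knockout HSC, which was 26.5% where the gene was the nearest one. Counted over rows with summits within 250 bp, wild-type HSC had 11.9% and wild-type HPC 26.0% against knockout. The cause of these moves was not tested beyond the number of regions each setting keeps. The side of the whole-list share changed in 4: knockout HSC without the weakest regions (23.2% against 22.3%), knockout HPC with equal numbers (12.0% against 12.7%) and without the weakest (3.11% against 3.42%), and wild-type HSC against HPC by nearest gene (9.65% against 8.77%). The background near protein-coding genes was added after seeing the data. No replicate could be left out, since each list pools its samples. No paired analysis was possible because the lists carry no replicates.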
